A study of Mus musculus with 4 samples.

Results

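The genes described here encode the proteasome, its activators, its inhibitor and the factors that assemble it. They were found by name, as every gene whose single annotated symbol is Psma, Psmb, Psmc, Psmd, Psme, Psmf or Psmg followed by a number, and the brightest array row stood for each gene. This gave 48 of the 19938 genes with a named row, and it covers all 48 protein-coding mouse genes of these names in the RefSeq gene table.

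The proteasome is the main protease of the cytosol and nucleus and breaks down proteins that carry ubiquitin chains. Its barrel-shaped 20S core holds outer alpha rings and inner beta rings, and 3 kinds of beta subunit (Psmb5, Psmb6 and Psmb7) do the cutting. The 19S cap, made of a base with ATPases and a lid, receives and unfolds the substrates. Interferon-gamma induces replacement beta subunits (Psmb8, Psmb9 and Psmb10) and the activator subunits Psme1 and Psme2, which form the immunoproteasome and favour peptides that fit MHC class I.

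Expression was measured on Affymetrix mouse arrays in 4 samples of cultured primary lung fibroblasts, which grew out of collagenase-digested lung of mice aged 3 to 4 weeks in medium with 20% serum and were not treated. KrasD12 A and B came from line 493, which carries the KrasD12 allele (the series also names the mutant cells SKY and K-RasG12D), and WT A and B came from the wild-type line 494. How the allele was switched on, and in which cells, is not given in the sources used here. With 1 line per genotype, an effect of the allele cannot be told apart from one of the line. Nothing says that A and B are separate cultures, so the p-values measure only the spread between A and B, which may be technical. In such bulk samples, fewer cells of a type and less RNA per cell cannot be told apart.

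Values are the deposited log2 values, and differences are KrasD12 minus WT. The KrasD12 columns (medians 6.24 and 6.26) were deposited at a higher overall level than the WT columns (5.90 and 5.91), and the gap depends on brightness. The median difference of all genes was 0.39 at means of 5 to 6, 0.14 at means of 8 to 9 and 0.07 at means of 9 to 10, and after quantile normalization of the columns it lay between -0.03 and 0.01 in every such 1-unit range. A gene is therefore said to have risen or fallen only where limma called it in the same direction (Benjamini-Hochberg adjusted p under 0.05 over all genes) on the deposited and on the quantile-normalized values. All 10 fibroblast markers lay above the dim level of 5.15, the level under which nearly all olfactory and vomeronasal receptor rows fall. Of the markers of other cell types, 3 of 6 epithelial, 4 of 6 leukocyte and 1 of 5 endothelial ones also lay above it, at means of at most 6.51. These were Krt8, Krt18 and Nkx2-1, then Cd68, Lyz2, Csf1r and Cd3e, then Tek. Epcam, Ptprc and Pecam1 were among those below it. Of the fibroblast markers 4 fell and 1 (Pdgfra) rose, and Acta2, a smooth muscle actin of contractile fibroblasts, fell by 1.67, more than any proteasome gene. Their summed levels were 110.1 to 110.2 in KrasD12 and 112.4 to 112.6 in WT after quantile normalization. The epithelial sums were 33.6 to 34.1 in KrasD12 and 31.0 to 31.1 in WT as deposited, but 32.6 to 32.8 and 32.1 to 32.2 after quantile normalization. Sftpc alone of the 6 rose, and its mean lay below the dim level. The endothelial sums turned with the scaling, from 24.3 to 24.5 against 22.8 to 23.7 as deposited to 23.4 to 23.5 against 23.8 to 24.6, and none of the 5 rose or fell. The leukocyte sums were 30.6 to 30.8 against 30.8 as deposited and 29.5 to 29.6 against 31.9 after quantile normalization. The macrophage genes among them went different ways: Lyz2 and Csf1r fell (-1.48 and -0.43), Adgre1 rose by 0.63, and Cd68 was called higher as deposited only (0.71). The mean of Adgre1 (3.88) lay below the dim level, and that of Csf1r (5.20) just above it. The part of these markers' cells in the results below was not tested.

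Proteasome transcripts were lower in KrasD12 than in WT fibroblasts across nearly the whole particle. Falls were called in 30 of the 48 genes (62.5%, against 11.5% of all genes) and a rise in Psmb9 alone (22.4% of all genes rose), which leaves 17 without the same call on both scalings. Among genes of like brightness, with means of 8 to 10, 28 of 37 proteasome genes fell (75.7%), against 20.0% of all 4368 such genes. The falls were moderate, from 0.20 to 1.00 on the log2 scale with a median of 0.39, which put the transcripts at 50.2% to 87.4% of their WT level. As deposited, the 48 genes had a median difference of -0.31, and with quantile normalization one of -0.41, beside 0.26 and 0.00 for all genes.

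**Figure D1:**
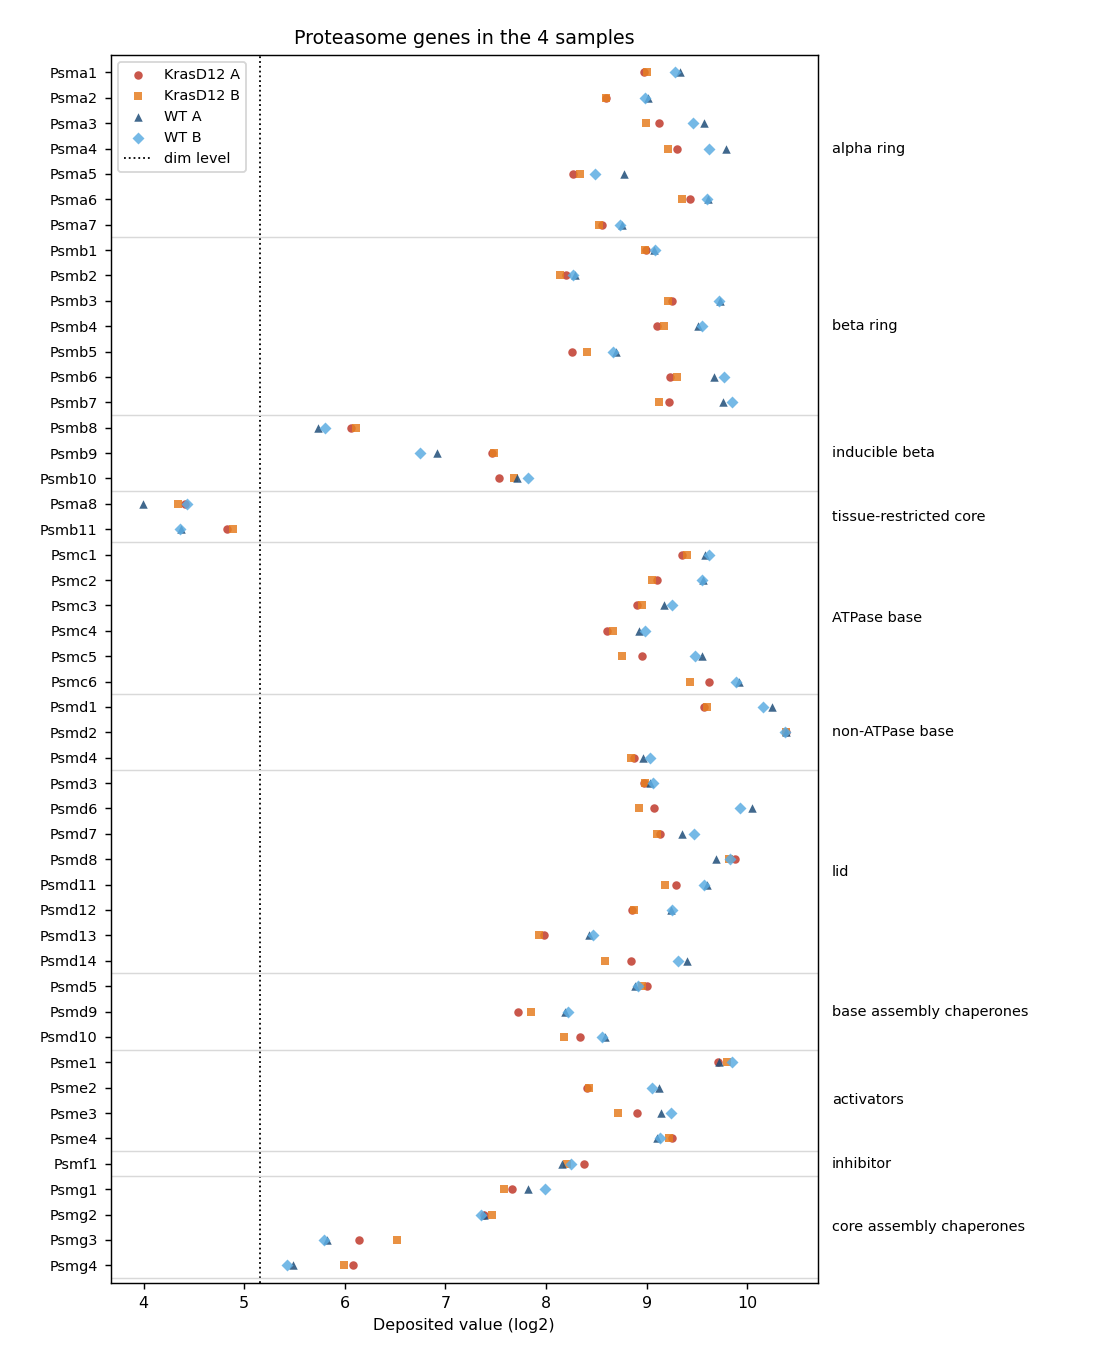
Deposited log2 values (horizontal axis) of the 48 proteasome genes, 1 line per gene, grouped by role, with 1 symbol per sample and the dim level of 5.15 as a dotted line. In 35 genes both KrasD12 samples lie below both WT samples, and Psma8 and Psmb11 lie left of the dim level.

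On the deposited values alone, limma called 30 members lower and 5 higher, where 11.9% and 50.1% of all genes were called. After quantile normalization it called 33 lower and 1 higher (24.4% and 22.5% of all genes), and after centring the columns on their medians 41 and 2 (33.4% and 17.9%). Centring lowers every difference by the same amount, which exceeds the median gap of 0.11 at means of 8 to 10. In 35 members both KrasD12 samples lay below both WT samples, and in 7 both lay above, against 18.7% and 64.3% of all genes. Among the 37 members with means of 8 to 10, limma called 28 lower and 0 higher as deposited, against 20.0% and 38.4% of such genes, and 30 lower and 0 higher after quantile normalization, against 26.7% and 26.2%. None of the 37 was higher at an unadjusted p under 0.05 on either scaling. In 32 of them the KrasD12 samples lay wholly below WT and in 2 wholly above, against 31.1% and 54.3% of such genes. The median distance between samples A and B over the 48 genes was 0.065 in KrasD12 and 0.055 in WT. With each sample left out in turn, the 30 genes that fell had median differences of -0.39 to -0.40. Their direction could not turn in these fits, since both KrasD12 samples lay below both WT samples in all 30. Such fits have 1 sample in a line and lose calls over all genes, so no conclusion is drawn from their counts of calls.

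**Figure D2:**
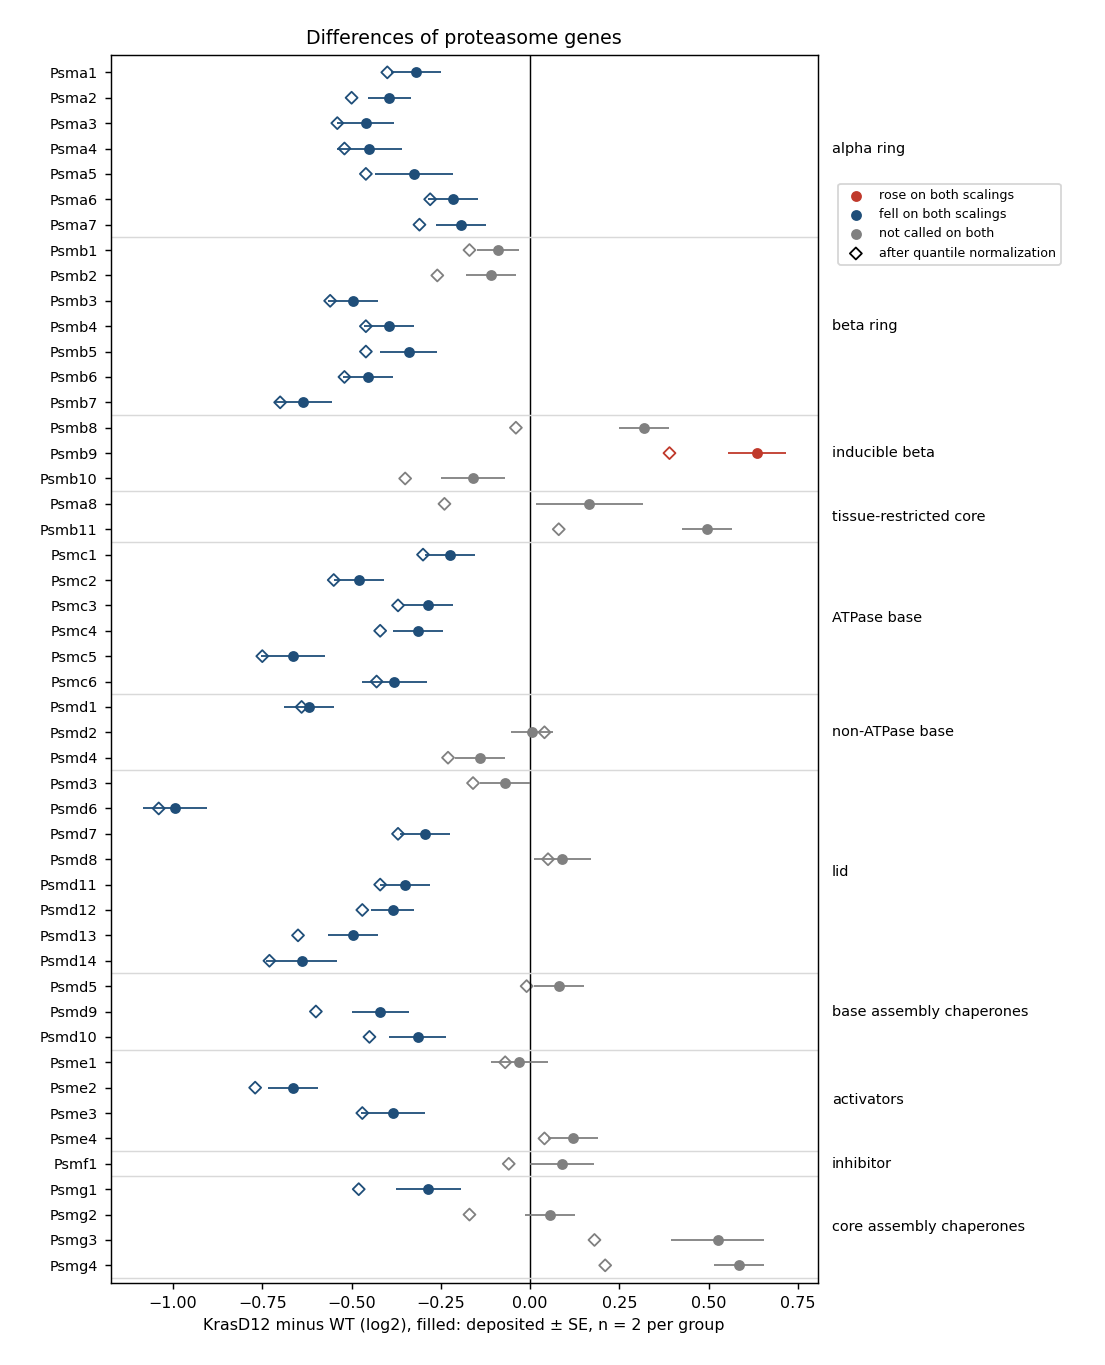
Difference between KrasD12 and WT (log2, horizontal axis) of each proteasome gene, with filled points and limma's moderated SE for the deposited values (n = 2 per group) and open diamonds after quantile normalization. Psmd6, which fell by 1.00, lies farthest left, and Psmb9 alone is marked as risen.

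The alpha ring fell as a whole. All 7 of its genes, Psma1 to Psma7, fell, against 20.0% of all genes with means of 8 to 10. The falls were of 0.20 to 0.46, with a median difference of -0.33 (-0.46 after quantile normalization). The alpha subunits form the gate through which substrates enter the core. Psma3 was at 9.12 and 8.99 in KrasD12 and 9.57 and 9.46 in WT, a difference of -0.46 ± 0.08 (limma adjusted p = 0.00622, n = 2 per group; the ± throughout is limma's moderated standard error). Its other array rows differed by -0.55 and -0.60. Psma4 was at 9.30 and 9.21 against 9.79 and 9.62, and fell by 0.45 ± 0.09. Psma2 was at 8.60 in both KrasD12 samples and at 9.01 and 8.98 in WT, a fall of 0.40 ± 0.06. In these 3 genes the KrasD12 samples lay below both WT samples by more than A and B of a line differed. Psma1 stood at 8.97 and 9.00 against 9.33 and 9.28 (-0.32 ± 0.07). Psma5 stood at 8.27 and 8.34 against 8.77 and 8.49 (-0.33 ± 0.11). WT A and B of Psma5 lay farther apart than those of the other alpha genes, and its adjusted p of 0.0464 was near the threshold. A second row of Psma5 differed by -0.28 ± 0.07, and RefSeq lists a Psma5 pseudogene. Psma6 was at 9.43 and 9.35 against 9.61 and 9.60 (-0.22 ± 0.07, limma adjusted p = 0.0403). Psma7 was at 8.56 and 8.53 against 8.75 and 8.73 (-0.20 ± 0.07, limma adjusted p = 0.0459). These were the smallest falls of the ring, though neither group overlapped the other.

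Of the 7 standard beta genes 5 fell, and in all 7 both KrasD12 samples lay below both WT samples. The same held for 20.0% and 31.1% of all genes with means of 8 to 10. The cutting subunits were among those that fell. Psmb7, which carries the trypsin-like site, was at 9.22 and 9.12 in KrasD12 and 9.76 and 9.85 in WT, a fall of 0.64 ± 0.08 (limma adjusted p = 0.00195). Psmb6, with the caspase-like site, was at 9.23 and 9.30 against 9.67 and 9.77, a fall of 0.46 ± 0.07. Psmb5, with the chymotrypsin-like site that proteasome inhibitor drugs bind, was at 8.26 and 8.41 against 8.69 and 8.66, a fall of 0.34 ± 0.08 (limma adjusted p = 0.0146). The 2 lines did not overlap in any of these genes. Of the non-catalytic subunits, Psmb3 was at 9.25 and 9.21 against 9.73 and 9.72 (-0.50 ± 0.07, with -0.32 ± 0.07 on its second row). Psmb4 was at 9.10 and 9.17 against 9.51 and 9.55 (-0.40 ± 0.07). Psmb1 (8.99 and 8.98 against 9.07 and 9.08) and Psmb2 (8.20 and 8.14 against 8.29 and 8.27) differed by only -0.09 ± 0.06 and -0.11 ± 0.07. Neither was called on the deposited values, and Psmb2 was called lower after quantile normalization (-0.26, limma adjusted p = 0.0252).

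The ATPase ring of the cap, which unfolds substrates and threads them into the core, fell as completely as the alpha ring. All 6 genes fell, against 20.0% of all genes with means of 8 to 10. The falls were of 0.23 to 0.67, with a median difference of -0.35 (-0.42 after quantile normalization). Psmc5 was at 8.95 and 8.75 in KrasD12 and 9.55 and 9.48 in WT, a fall of 0.67 ± 0.09 (limma adjusted p = 0.00277). Psmc2 was at 9.10 and 9.05 against 9.56 and 9.55, a fall of 0.48 ± 0.07. Psmc6 was at 9.62 and 9.43 against 9.92 and 9.89 (-0.38 ± 0.09). The KrasD12 samples of Psmc5 and Psmc6 were farther from each other than those of most members, and still did not reach the WT samples. Psmc4 stood at 8.61 and 8.66 against 8.92 and 8.98 (-0.32 ± 0.07), and Psmc3 at 8.90 and 8.95 against 9.17 and 9.25 (-0.29 ± 0.07). Psmc1 was at 9.35 and 9.40 against 9.58 and 9.62 (-0.23 ± 0.07, limma adjusted p = 0.0325). The rows of Psmc1 disagreed: a second row, at 9.13 and 9.03 against 8.96 and 8.99, differed by 0.11 ± 0.07 and was not called, and with the mean of both rows Psmc1 lost its call.

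The non-ATPase base did not move as one. Psmd1, a large scaffold of the base, was at 9.57 and 9.60 in KrasD12 and 10.25 and 10.16 in WT, a fall of 0.62 ± 0.07 (limma adjusted p = 0.00169). Psmd2, the other large scaffold and the brightest gene of the 48, was at 10.38 in both KrasD12 samples and at 10.38 and 10.37 in WT. That is a difference of 0.01 ± 0.06 (limma adjusted p = 0.952), although a second, dimmer row of Psmd2 differed by -0.23 ± 0.07. Psmd4, a receptor for ubiquitin chains, was at 8.87 and 8.84 against 8.96 and 9.03 (-0.14 ± 0.07). It was not called on the deposited values (limma adjusted p = 0.126) and was called lower after quantile normalization (-0.23, limma adjusted p = 0.0427).

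The lid held the largest fall. Of its 8 genes 6 fell, against 20.0% of all genes with means of 8 to 10. The median difference of the lid was -0.37 (-0.45 after quantile normalization). Psmd6, a structural subunit of the lid, was at 9.07 and 8.92 in KrasD12 and 10.05 and 9.93 in WT, a fall of 1.00 ± 0.09 to 50.2% of the WT level (limma adjusted p = 0.000952). The next largest falls among the 48 genes, those of Psmc5 and Psme2, were of 0.67. Psmd14, the enzyme that strips ubiquitin from substrates as they enter, was at 8.84 and 8.59 against 9.40 and 9.31, a fall of 0.64 ± 0.10. Its partner Psmd7, which has no enzyme activity of its own, was at 9.13 and 9.10 against 9.35 and 9.47 (-0.30 ± 0.07). Both lay wholly below WT. Psmd13 was at 7.98 and 7.93 against 8.43 and 8.47 (-0.50 ± 0.07). Psmd12 was at 8.85 and 8.87 against 9.24 and 9.25 (-0.39 ± 0.06), and Psmd11, whose level is known to limit assembly of the 26S particle, at 9.29 and 9.18 against 9.60 and 9.57 (-0.35 ± 0.07). The lid genes that were not called were Psmd3 (8.97 and 8.98 against 9.03 and 9.06) and Psmd8 (9.88 and 9.82 against 9.69 and 9.83). Psmd8 overlapped between the lines and differed by 0.09 ± 0.08. Over the 20S core and the 19S cap together, 25 of 31 genes fell (80.6%) and 0 rose. Of all genes with means of 8 to 10, 20.0% fell and 26.2% rose, and of all genes 11.5% and 22.4%. Limma called 0 of the 31 higher on either scaling, also at an unadjusted p under 0.05. In 29 of the 31 both KrasD12 samples lay below both WT samples, Psmd2 and Psmd8 being the exceptions. The same held for 31.1% of all genes with means of 8 to 10 and 18.7% of all genes.

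**Figure D3:**
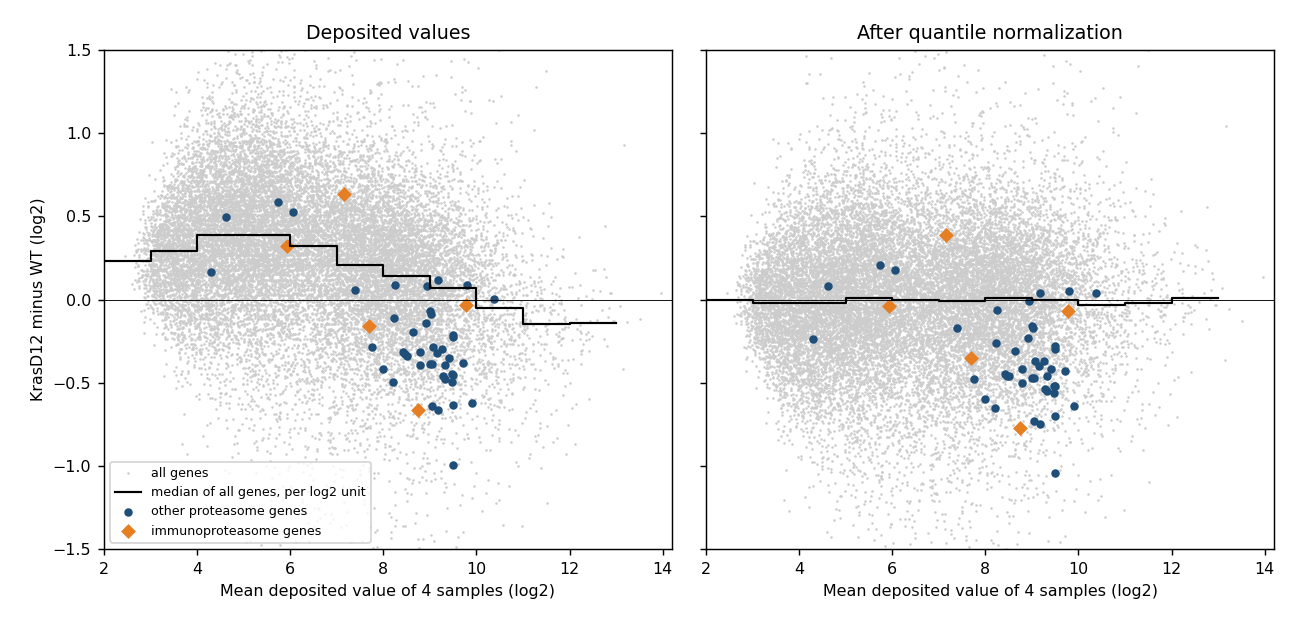
Difference between KrasD12 and WT (log2, vertical axis) against the mean of the 4 samples (log2, horizontal axis), on the deposited values (left) and after quantile normalization (right), with all genes in grey, their median per log2 unit as a black step, and the proteasome genes in colour. The axis ends at a difference of 1.5, which leaves 227 and 235 genes outside. Most proteasome genes lie below the step in both panels, while Psmb9 lies above it in both.

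The immunoproteasome genes went different ways. Of the 5, Psmb9 rose, Psme2 fell, Psmb8 and Psmb10 were called on 1 scaling each, and Psme1 on neither. The median difference of the 5 was -0.03, against -0.32 for the other 43 (-0.07 and -0.42 after quantile normalization). Psmb9, which replaces Psmb6, was at 7.46 and 7.48 in KrasD12 and 6.92 and 6.75 in WT, a rise of 0.64 ± 0.08 (limma adjusted p = 0.00242), or 0.39 after quantile normalization (limma adjusted p = 0.0111). With any 1 sample left out it still stood at 0.55 to 0.72, but was no longer called in these fits, which lose calls over all genes. The lines did not overlap, and the KrasD12 samples were nearly equal. Psmb8, which replaces Psmb5, was the dimmest of the 5, at 6.06 and 6.11 against 5.73 and 5.80. It was called higher on the deposited values (0.32 ± 0.07, limma adjusted p = 0.0115), but all genes of its brightness were shifted by a median of 0.39, and after quantile normalization it stood at -0.04. Psmb10, which replaces Psmb7, was at 7.53 and 7.68 against 7.71 and 7.82 (-0.16 ± 0.09, limma adjusted p = 0.155). It was called lower after quantile normalization only (-0.35, limma adjusted p = 0.0193), so the inducible beta genes had no common direction on either scaling.

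Psme1 and Psme2 encode the partner subunits of the PA28 activator, which opens the gate of the core. Psme1 was at 9.71 and 9.80 in KrasD12 and 9.72 and 9.85 in WT, overlapping, with a difference of -0.03 ± 0.08. Psme2 was at 8.41 and 8.43 against 9.12 and 9.05, a fall of 0.67 ± 0.07 (limma adjusted p = 0.00133). These genes lie close together on chromosome 14, with 1 protein-coding gene between them in RefSeq. The value of Psme2 is uncertain, since RefSeq lists a close copy, Psme2b. An array row annotated to Psme2b and Psme2 together, outside the rule, was at 8.51 and 8.54 in KrasD12 and 8.08 and 8.27 in WT, a difference of 0.35 ± 0.09 in the opposite direction. Of the other activators, Psme3, which forms a nuclear activator, was at 8.90 and 8.71 against 9.14 and 9.24, a fall of 0.39 ± 0.09 (limma adjusted p = 0.0156). Psme4, the large activator PA200, was at 9.25 and 9.22 against 9.10 and 9.13 (0.12 ± 0.07) and was not called. The inhibitor gene Psmf1 was at 8.38 and 8.21 against 8.16 and 8.25, overlapping (0.09 ± 0.09).

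Each inducible beta subunit takes the place of 1 standard subunit when a core is assembled, so their values were also set against each other within a sample. Array rows of different genes have no common scale, and only the change of this difference between lines can be read. Psmb9 minus Psmb6 was -1.77 and -1.82 in KrasD12 and -2.75 and -3.02 in WT, a change of 1.09 towards the inducible subunit (0.90 after quantile normalization). Psmb8 minus Psmb5 was -2.20 and -2.30 against -2.96 and -2.86, a change of 0.66 (0.42). Psmb10 minus Psmb7 was -1.69 and -1.44 against -2.05 and -2.03, a change of 0.48 (0.34). In all 3 pairs both KrasD12 samples lay above both WT samples. All 3 standard subunits fell, so an inducible subunit that only fell less also gives a change in this direction. Psmb10 itself differed by -0.16 (-0.35 after quantile normalization), and Psmb8 stood at -0.04 after quantile normalization. The exact two-sided permutation test gave p = 0.333 for each pair, also adjusted over the 3 pairs, which is the smallest value that 2 against 2 samples allow, so no pair can pass 0.05. The rows of the inducible genes are dimmer than those of their standard partners, and all genes of these means differed between the lines by medians of 0.21 to 0.39 and of 0.07 to 0.14 on the deposited values.

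**Figure D4:**
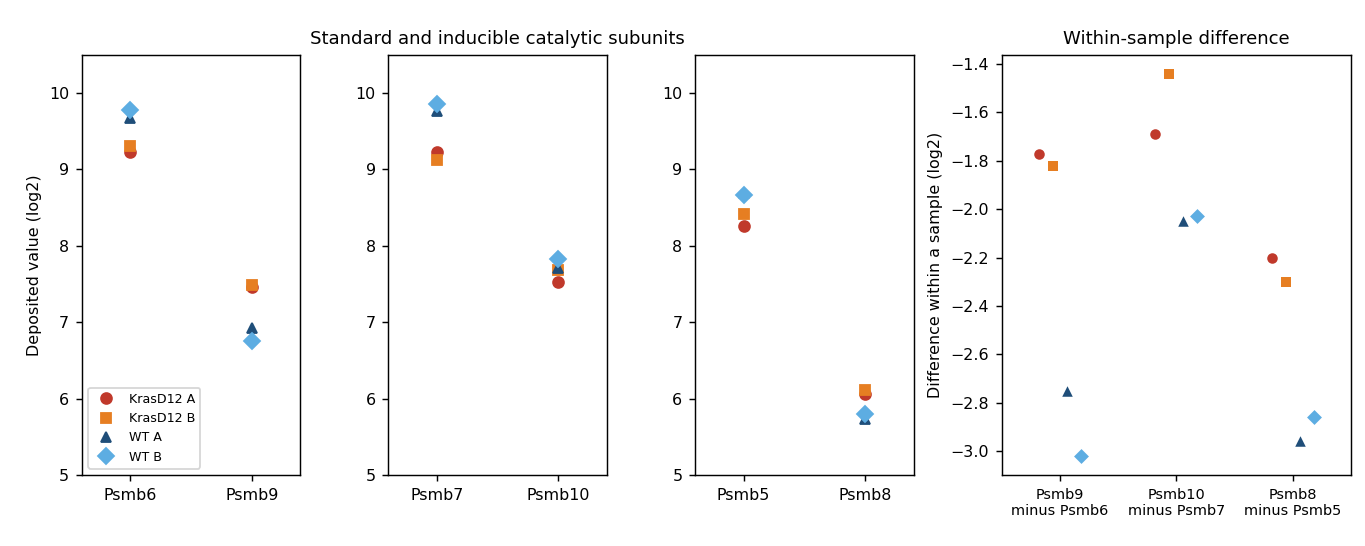
Deposited log2 values of each standard catalytic subunit and of the inducible subunit that replaces it, 1 symbol per sample (3 panels on the left), and the inducible minus the standard value within each sample (right). Psmb6, Psmb7 and Psmb5 are lower in both KrasD12 samples, and the within-sample difference is higher in both KrasD12 samples for each pair.

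Of the 7 assembly factors 3 fell and 0 rose, beside 11.5% and 22.4% of all genes. Limma called 2 higher as deposited and 0 with quantile normalization (1 at an unadjusted p under 0.05). The shares of all genes called higher were 50.1% and 22.5%. Psmg1 and Psmg2 form the dimer that gathers the alpha ring, and Psmg3 and Psmg4 form a second one. Psmg1 was at 7.66 and 7.58 in KrasD12 and 7.82 and 7.99 in WT, a fall of 0.29 ± 0.09 (limma adjusted p = 0.0337). Psmg2 was at 7.38 and 7.46 against 7.38 and 7.35 (0.06 ± 0.07), so the members of this dimer differed in call. Psmg3 was at 6.14 and 6.52 against 5.82 and 5.79, and Psmg4 at 6.08 and 5.99 against 5.48 and 5.42. Both were called higher on the deposited values (0.53 ± 0.13 and 0.59 ± 0.07), where genes of their brightness were shifted by 0.32 and 0.39, and neither was called after quantile normalization (0.18 and 0.21). Psmg3 had the widest gap between KrasD12 A and B of all 48 genes, 0.38. The chaperones of the cap base are released once the base has formed. Of these, Psmd9 was at 7.72 and 7.85 against 8.19 and 8.22, a fall of 0.42 ± 0.08, and Psmd10 (gankyrin) at 8.34 and 8.18 against 8.59 and 8.56, a fall of 0.32 ± 0.08. Psmd5 was at 9.00 and 8.95 against 8.88 and 8.91 (0.08 ± 0.07) and was not called. Psma8 and Psmb11, core subunits restricted to testis and thymus, lay below the dim level in both lines. Psmb11 was called higher on the deposited values (0.50 ± 0.07) and stood at 0.08 after quantile normalization.

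The genes that fell lie on 13 chromosomes. On chromosome 14 Psmb5 lies next to Psmb11, whose row is below the dim level, and on chromosome 3 Psmb4 (-0.40) lies near Psmd4 (-0.14). Psmb9 and Psmb8 lie on chromosome 17 on either side of Tap1, a peptide transporter gene that starts from the same short stretch as Psmb9. Tap1 was at 7.94 and 8.09 in KrasD12 and 7.91 and 7.75 in WT, a difference of 0.19 ± 0.09 that was not called (limma adjusted p = 0.134; 0.01 after quantile normalization).

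Promoter sequences are shown for the member that rose, for the standard subunit it replaces, and for the member with the largest fall. They are the 250 bases before the RefSeq start on GRCm38.p6, 5′ to 3′ on the gene's strand, with capitals for matches to the motifs named below: Psmb9 at chr17:34187331-34187580 (minus strand), Psmb6 at chr11:70525107-70525356 (plus strand) and Psmd6 at chr14:14120946-14121195 (minus strand).
Psmb9: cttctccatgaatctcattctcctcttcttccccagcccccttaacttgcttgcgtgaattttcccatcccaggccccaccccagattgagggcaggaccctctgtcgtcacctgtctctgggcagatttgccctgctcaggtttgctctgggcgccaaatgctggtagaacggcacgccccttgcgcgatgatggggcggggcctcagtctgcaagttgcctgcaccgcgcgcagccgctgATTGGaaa
Psmb6: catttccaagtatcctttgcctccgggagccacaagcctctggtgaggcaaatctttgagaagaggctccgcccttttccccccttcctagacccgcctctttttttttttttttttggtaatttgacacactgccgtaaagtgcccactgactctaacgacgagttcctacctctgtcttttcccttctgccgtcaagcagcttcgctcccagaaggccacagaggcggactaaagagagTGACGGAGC
Psmd6: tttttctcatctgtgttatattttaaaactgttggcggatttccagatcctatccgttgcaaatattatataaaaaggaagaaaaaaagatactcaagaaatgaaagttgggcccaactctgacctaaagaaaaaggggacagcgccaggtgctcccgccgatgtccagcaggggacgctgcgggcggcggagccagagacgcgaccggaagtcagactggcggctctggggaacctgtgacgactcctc

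In Psmb9 the capitals mark a CCAAT box read on the other strand, 8 bases before the start. In Psmb6 they mark the core of the antioxidant response element, TGACNNNGC, 9 bases before the start, the kind of element through which NRF1 and NRF2 (genes Nfe2l1 and Nfe2l2) act on proteasome genes. The Psmd6 stretch has no match to any of the motifs searched. RefSeq windows of 300 bases (250 before to 50 after the start) were found for 40 of the 48 genes, 43 windows in all, and searched on both strands with overlaps allowed. The antioxidant core stood in 14.0% of the proteasome windows, against 12.4% of all 32851 promoter windows, and its holders were Psmb5, Psmb6, Psmc6, Psmd12, Psmd9 and Psme4. CCAAT stood in 32.6%, against 37.4% of all. The interferon-stimulated response element, read as GAAA, any 2 bases and GAAA again, stood in 11.6% (Psmb3, Psmd4, Psmd9, Psme1 and Psmg4), against 3.44% of all. The gamma-activated site, TTCNNNGAA, stood in 6.98% (Psmb8, Psmd2 and Psmg1), against 8.30% of all. Of the 27 genes that fell and have a window, 5 held the antioxidant core, as did 1 of the 13 others. These are matches of letters in short windows, not binding sites, and no test was made of them.

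Proteasome partners outside the Psm families showed more falls than rises. Of 25 listed genes 17 were measured, of which 6 fell and 2 rose, and 9 had no call that held on both scalings. Of all genes 11.5% fell and 22.4% rose, and of those with means of 8 to 10 20.0% and 26.2%. The list's median difference was -0.19 (-0.24 after quantile normalization). Pomp, the factor that completes the 20S core, was at 9.56 and 9.51 in KrasD12 and 10.10 and 10.23 in WT, a fall of 0.63 ± 0.08 (limma adjusted p = 0.00203). Ubqln4 and Ubqln2, which ferry ubiquitinated proteins to the proteasome, rose by 0.56 ± 0.09 and 0.49 ± 0.07. Sem1, the smallest lid subunit, was at 8.43 and 8.35 against 8.86 and 8.84 and fell by 0.46 ± 0.07. Ufd1, a cofactor of the segregase Vcp, fell by 0.45 ± 0.08, and Vcp itself stood at -0.20 ± 0.07 (limma adjusted p = 0.0537).

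Of 7 listed regulators 5 were measured, of which 2 fell and 2 rose, and Nlrc5 was called higher on the deposited values only. Of all genes 11.5% fell and 22.4% rose, and of those with means of 8 to 10 20.0% and 26.2%. Nfe2l1 encodes NRF1, the factor that raises proteasome genes when proteasome capacity runs short. It was at 9.58 and 9.55 in KrasD12 and 9.93 and 9.92 in WT, a fall of 0.36 ± 0.07 (limma adjusted p = 0.00631). Nfe2l2 encodes NRF2, the oxidative stress factor, and was at 10.41 and 10.38 against 9.83 and 9.87, a rise of 0.55 ± 0.07 (limma adjusted p = 0.00198). Ngly1, which edits NRF1 on its way to the nucleus, rose by 0.36 ± 0.07. The interferon-responsive factor gene Irf1, an inducer of immunoproteasome genes, was at 7.49 and 7.64 against 8.05 and 8.01 and fell by 0.47 ± 0.08. Irf1 has 2 array rows and Nlrc5 has 19, and only the brightest of each is given. The part of these regulators in the changes of proteasome genes, Psmb9 among them, was not tested.

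Of 9 listed genes of peptide handling for MHC class I 7 were measured, of which 3 fell and 0 rose. Of all genes 11.5% fell and 22.4% rose, and of those with means of 8 to 10 20.0% and 26.2%. Limma called 0 of the 7 higher on either scaling, and 1, Tap2, was higher at an unadjusted p under 0.05, on the deposited values. The list's median difference was -0.37 (-0.18 after quantile normalization). Erap1, which trims peptides in the endoplasmic reticulum, was at 7.22 in both KrasD12 samples and 8.06 in both WT samples, a fall of 0.84 ± 0.06. The chaperone gene Calr fell by 0.67 ± 0.07 and the loading factor Tapbp by 0.63 ± 0.07. Leukocytes also express these genes, and the part of the leukocyte markers, of which 2 fell and 1, below the dim level, rose, was not tested.

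**Figure D5:**
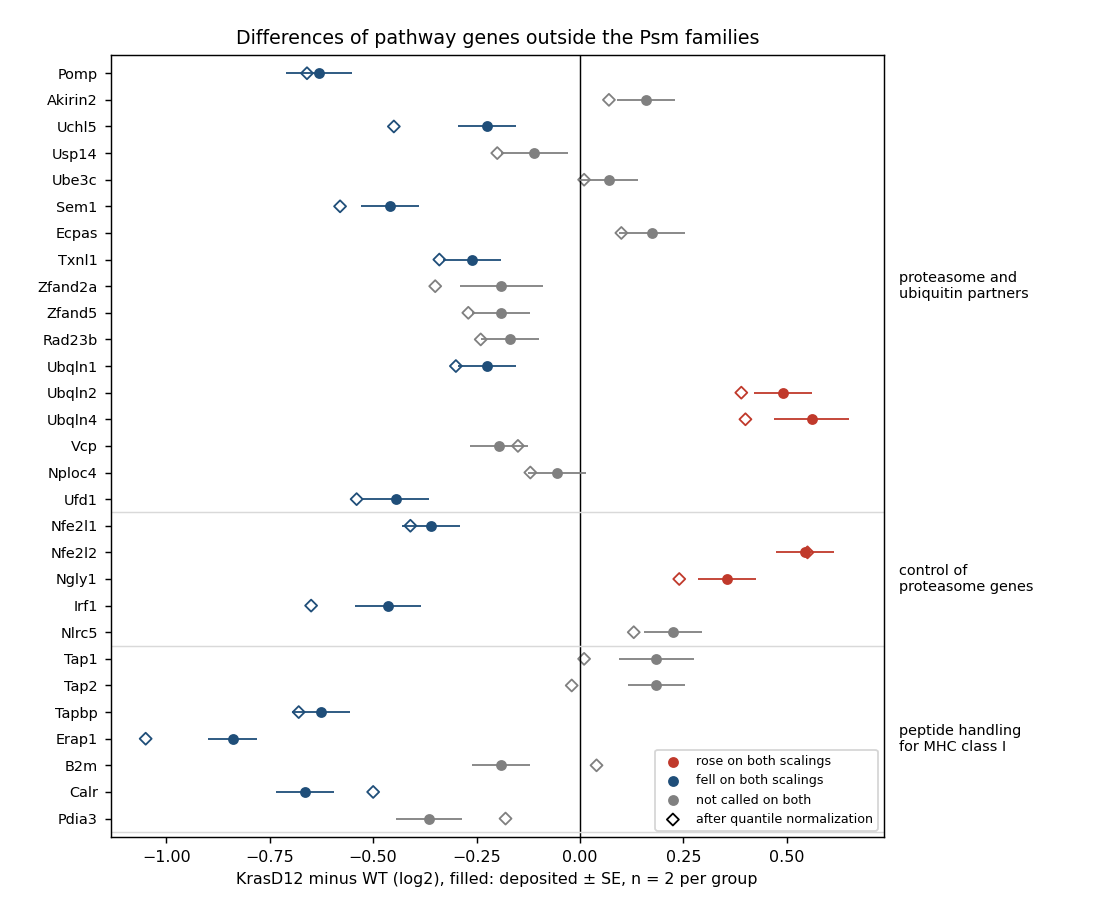
Difference between KrasD12 and WT (log2, horizontal axis) of 29 measured genes outside the Psm families, in 3 lists, with filled points and limma's moderated SE for the deposited values (n = 2 per group) and open diamonds after quantile normalization. Erap1 lies farthest left at -0.84, and Ubqln4, Ubqln2, Nfe2l2 and Ngly1 are those marked as risen.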

How the data were processed

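RNA of 4 samples was read on Affymetrix arrays. Per the submitters' processing notes, the authors' deposited values were made with the Transcriptome Analysis Console. The version, the background correction and how columns were normalized were not given in the sources used here. That the unit is log2 was read from the deposited values, which run from 2.28 to 14.95.

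Of 28944 rows, 21789 have exactly 1 symbol in the platform annotation, 1621 several and 5534 none. Symbols were brought up to date through the RefSeq table (21698 matched), and the row with the highest mean stood for each of 19938 genes. Limma 3.58.1 (R 4.3.3; lmFit and eBayes, group as the only term, two-sided) was run over all genes with Benjamini-Hochberg adjustment and a threshold of 0.05, again after quantile normalization, and was tested on simulated data. With 2 samples per group, 2 residual degrees of freedom remain, and this number limits the precision. Within-sample differences were tested with scipy 1.17.1, tables handled with pandas 2.3.3 and plots drawn with matplotlib 3.10.9.

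The members, lists and call rule were chosen with earlier results of these data known. Values in every sample are given for the immunoproteasome genes, the standard catalytic subunits and all members called on both scalings. Of the 48 members, 46 lay above the dim level of 5.15, the 95th percentile of the means of 1205 olfactory and vomeronasal receptor rows. Of each list outside the families, up to 4 called genes with the largest differences are named. Sample values of Psmb1, Psmb2, Psmd3, Psmd4, Psmd5, Psmd8, Psme4, Psmf1 and Psmg2 to Psmg4, and the genes Ufd1, Vcp, Tap1, Tap2, Nlrc5 and the single markers, were added after their values were seen. Alternatives were a replicate block, median centring, cyclic loess, a dim filter, a trended or trended robust eBayes, row means per gene and each sample left out; every row on its own was added after seeing the data. Listed genes without a row are not analysed here.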

Additional observations from a re-analysis of the deposited data

Results flagged for a closer look

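An array row annotated to Psme2b and Psme2 together carried signal in data that the comparison of single-symbol rows leaves out. It was higher in KrasD12 than in WT by 0.35 ± 0.09 on the log2 scale (limma adjusted p = 0.0178 over every row with a symbol, n = 2 per group), while the row of Psme2 alone fell by 0.67 ± 0.07. Which transcripts the shared row reads was not tested.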

How the results depend on the processing

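The count of members called lower, 30 on the deposited values, was 23 with the replicate block, 33 after quantile normalization or cyclic loess, 41 after median centring, 31 with a trend (also robust) and 29 with the mean of a gene's rows. Of all genes, 11.9% were called lower as deposited, 24.4% after quantile normalization and 33.4% after median centring. The share was not counted for the other fits, so their counts cannot be set against it. Leaving out each sample gave 0 to 16 calls, with the lone sample of a line assumed to vary like the others. No conclusion is drawn from the counts with a sample left out, since such fits lose calls over all genes. The 30 genes that fell kept their direction in every fit named here, but only cyclic loess and row means could have turned it. The replicate block and the trend leave each difference as it was, and median centring lowers every one. Quantile normalization was part of the call rule. Leaving out 1 sample could not turn genes whose KrasD12 samples both lay below both WT samples. Members called higher, 5 on the deposited values, were 4 with the replicate block, 1 after quantile normalization, 2 after median centring, 1 after cyclic loess and 0 to 3 with a sample left out. The labels do not say whether the replicate letter pairs the samples. Deviations of the A samples of both lines correlated at 0.0132 over all genes, which cannot show how the samples were handled. Under the replicate block Psma5, Psma6, Psma7, Psmc1, Psmd7, Psme3 and Psmg1 were no longer called lower, and Psmg3 was no longer called higher. Psmb8 turned to -0.04 after quantile normalization, -0.03 after centring and -0.06 after cyclic loess, none of them called. Median centring lowers every difference by the same amount, which exceeds the median gap of 0.11 at means of 8 to 10. It turned Psmd2 to -0.34, Psmd8 to -0.26, Psmd5 to -0.27, Psme4 to -0.23 and Psmg2 to -0.29. On their second rows Psmc1 stood at 0.11 and Psmd2 at -0.23. The immunoproteasome median minus that of the other members, 0.29 on the deposited values, was 0.35 after quantile normalization, 0.34 after cyclic loess and 0.22 to 0.37 with a sample left out. The pairs of inducible and standard subunits kept their direction after quantile normalization and after cyclic loess. The cyclic loess changes were 0.87 for Psmb9 minus Psmb6, 0.42 for Psmb8 minus Psmb5 and 0.30 for Psmb10 minus Psmb7. Median centring cancels within a sample. Both KrasD12 samples lay above both WT samples in all 3 pairs, so leaving out 1 sample could not turn them.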
